A study of Mus musculus with 9 samples.

Results

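Lhx6, Sox6, Satb1, Dlx1, Dlx5, Dlx6, Maf and Mef2c are 8 transcription factor genes of the interneuron lineage, and their ribosome-associated RNA was followed in parvalbumin inhibitory neurons (PV INs) of hippocampal CA3/CA2. The 8 genes were chosen by name, as factors known from interneurons that arise in the medial ganglionic eminence (MGE), and all 8 were found among the 37620 gene identifiers of the count files. PV-Cre; Rpl22HA/HA mice, 2 months old and of both sexes, received lentivirus into the dentate gyrus (DG) carrying either a shRNA against Ablim3 (shRNA, 4 samples) or a non-target shRNA (shNT, 5 samples), and CA3/CA2 was collected 2 weeks later, pooled from 6 mice per sample. The purpose was to compare mRNAs of PV INs with and without increased mossy fibre input from the DG. Every mouse of both groups carried the HA-tagged ribosomal protein Rpl22, which Cre recombinase under PV control switches on in PV INs, so the virus acted in the DG while the RNA came from another region. The HA tag was immunoprecipitated, and the values therefore measure ribosome-bound RNA plus whatever RNA of other cells was carried along.

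Cortical and hippocampal PV INs are born mostly in the MGE of the embryonic ventral forebrain and migrate to their final position. Dlx genes mark the GABAergic precursors of the ventral forebrain, and Lhx6 is switched on in cells leaving the MGE and acts upstream of Sox6 and Satb1 during migration and maturation. Maf acts in young MGE-derived interneurons, and Mef2c is associated with the PV fate. Several of these genes stay active in adult interneurons, which allows them to be measured in CA3/CA2.

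Gene counts per sample ran from 18281719 to 34578837. Reads outside annotated exons made up 9.76% to 12.5% of uniquely aligned reads in 6 samples, but 18.6% in shNT replicate 2, 19.8% in shRNA replicate 1 and 27.2% in shRNA replicate 4. All 10 PV IN marker genes were detected, with a summed level of 4856 to 8020 CPM (counts scaled to library size, TMM-normalized) in shNT and 2854 to 6883 CPM in shRNA samples, 4867 to 6883 CPM without shRNA replicate 4. Summed astrocyte markers were 1082 to 1532 CPM in shNT and 1418 to 5568 CPM in shRNA samples, with the highest value in shRNA replicate 4. Ablim3, the target in the DG, was at 16.9 ± 5.16 CPM (SD, n = 5) in shNT and 18.5 ± 3.42 CPM (SD, n = 4) in shRNA samples of CA3/CA2 RNA (log2 fold change 0.13, FDR = 0.701, edgeR quasi-likelihood test), which says nothing about knockdown in the DG.

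All 8 transcription factors had a lower mean in shRNA than in shNT samples, but 0 of the 8 passed the test (edgeR quasi-likelihood test, FDR under 0.05 after Benjamini-Hochberg adjustment over all 15069 genes tested, and a change of at least 1.5-fold). Over all genes tested, 1.75% passed, 1.74% in the higher and 0.0133% in the lower direction. At an unadjusted p under 0.05, 4 of the 8 differed (Dlx1, Dlx5, Dlx6 and Maf), beside 34.1% of all genes tested, of which 20.7% were higher and 13.4% lower as shares of all genes. Across all genes 42.1% had a log2 fold change below 0 and the median was 0.11, against a median of -0.35 for the 8 factors. With the outside-exon read share as covariate, 5 of the 8 were below 0 and Lhx6 (0.12), Satb1 (0.16) and Mef2c (0.16) were above it. Apart from shNT replicate 2 (18.6%), the shNT samples had 9.76% to 11.3% of such reads, and the shRNA samples 12.4% to 27.2%. The share therefore went largely with the group, and this fit can hardly separate them. Of the factors, Dlx5 and Maf were at least 1.5-fold lower, which 5.75% of all genes were. In such bulk samples, fewer cells of a type and less RNA per cell cannot be told apart.

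**Figure D1:**
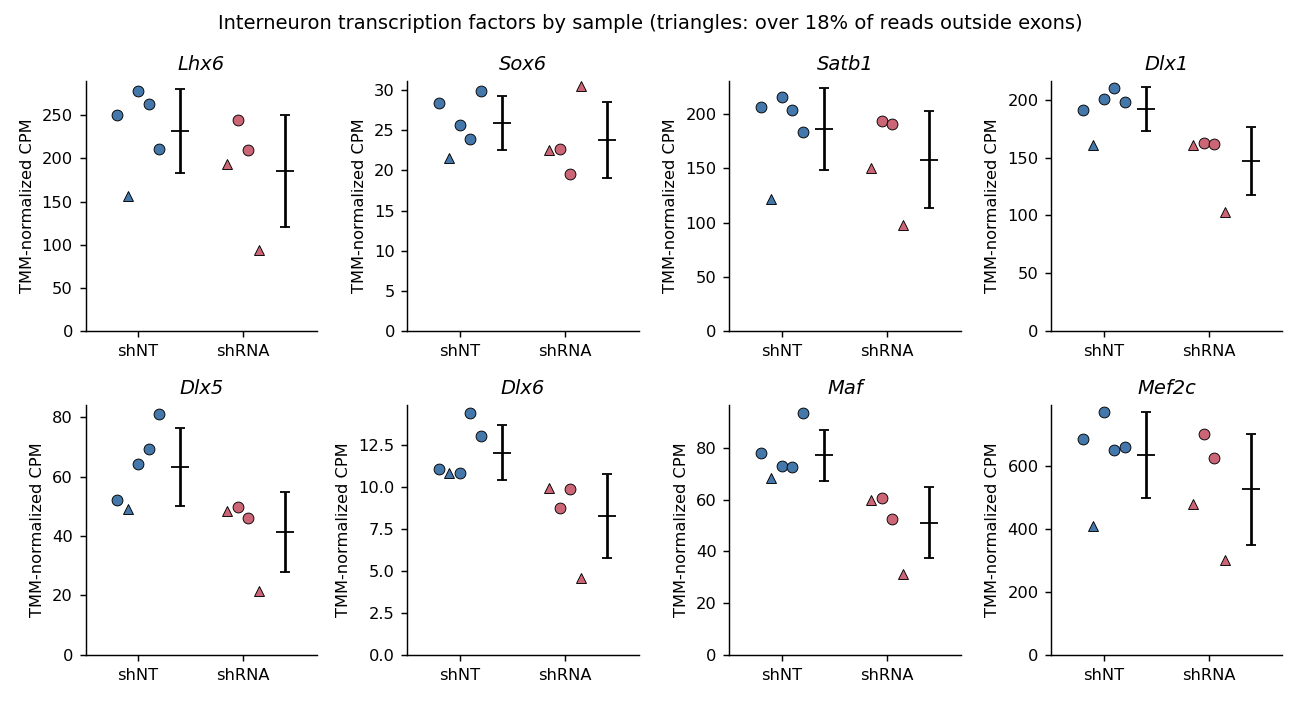
TMM-normalized CPM of each of the 8 factors in each sample, in shNT (blue) and shRNA (red) groups, with the group mean and SD as a black bar to the right of each group; triangles are the 3 samples with over 18% of reads outside exons. Maf and Dlx6 have no shRNA sample as high as the lowest shNT sample, while the other 6 factors overlap between groups.

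On a scale per kilobase of exon (RPKM, CPM divided by the exon length in kilobases), the factors ran over a wide range of levels in shNT samples. Mef2c, a MADS-box factor, was highest with 85.9 ± 18.3 RPKM (SD, n = 5), and 94.7% of all genes tested were lower. Lhx6, a LIM homeobox factor, had 48.9 ± 10.3 RPKM, Dlx5 44.4 ± 9.19 RPKM and Dlx1 35.6 ± 3.50 RPKM in shNT samples (SD, n = 5). These 4 levels were not cleanly separated, since Mef2c and Lhx6, Lhx6 and Dlx5, and Dlx5 and Dlx1 overlapped in range. Satb1, a chromatin organizer that binds AT-rich DNA, had 19.9 ± 4.04 RPKM, Maf, a basic leucine zipper factor, 9.37 ± 1.19 RPKM, Dlx6 5.07 ± 0.68 RPKM and Sox6, an SRY-box factor, 2.92 ± 0.38 RPKM in shNT samples (SD, n = 5). From Dlx1 down through Satb1, Maf, Dlx6 and Sox6 the ranges of neighbours did not overlap in shNT samples. In the shRNA samples only Satb1 and Maf, among the neighbours of the shNT order, had ranges that did not overlap. Sox6, at the bottom, was higher than 41.2% of all genes tested.

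**Figure D2:**
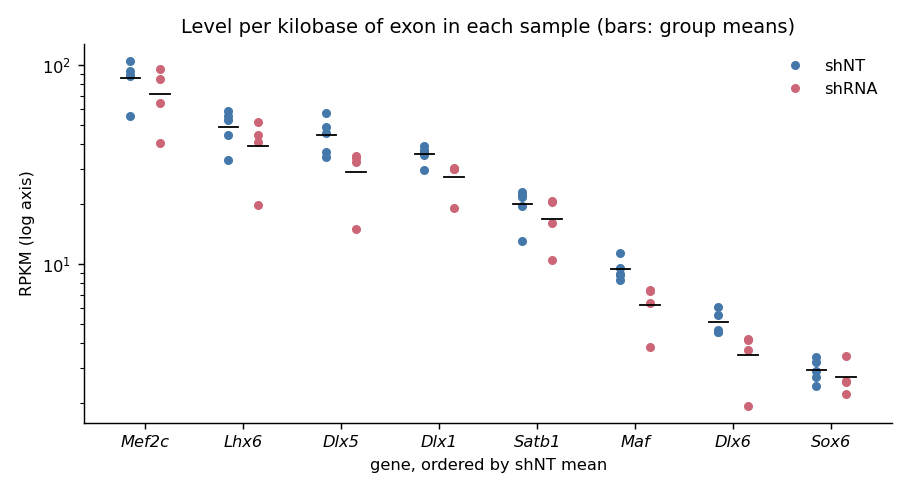
Level of each factor per kilobase of exon (RPKM, log axis) in each shNT (blue) and shRNA (red) sample, ordered by the shNT mean, with black bars at group means. From Mef2c at 85.9 RPKM to Sox6 at 2.92 RPKM the order of the shNT means falls, with overlapping ranges for the first 4 factors.

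Dlx1, Dlx5 and Dlx6 encode homeodomain proteins that act in GABAergic precursors and persist in some mature interneurons. Homeodomain proteins of the DLX and LIM types recognise short sequences with the core TAATT, so the RefSeq promoter windows of the factors were searched for this kind of site, on both strands. The windows hold 250 bases before and 50 after each transcription start (build GRCm38.p6, positions not comparable with the mm9 positions given for genes). The search covered 5 of the 8 factors (Lhx6, Sox6, Satb1, Dlx1 and Mef2c, 18 windows), and Dlx5, Dlx6 and Maf were not searched. The letters TAATTA occurred in 1 of the 18 windows and in 5.29% of all 32851 windows, and TAATTG, which reads CAATTA on the other strand, in 2 of the 18 and in 8.0% of all windows. The 3 windows with a match belong to Lhx6 and Mef2c and are shown because they hold the letters searched for, 5′ to 3′ with the matches in capitals.
Lhx6 window at chr2:36104011-36104310, minus strand: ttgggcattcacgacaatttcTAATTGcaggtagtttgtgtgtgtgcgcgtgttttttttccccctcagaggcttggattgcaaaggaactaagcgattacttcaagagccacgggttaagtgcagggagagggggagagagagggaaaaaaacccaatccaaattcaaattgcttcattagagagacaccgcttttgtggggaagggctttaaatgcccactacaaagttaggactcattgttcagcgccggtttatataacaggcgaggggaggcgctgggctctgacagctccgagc
Mef2c window at chr13:83503784-83504083, plus strand: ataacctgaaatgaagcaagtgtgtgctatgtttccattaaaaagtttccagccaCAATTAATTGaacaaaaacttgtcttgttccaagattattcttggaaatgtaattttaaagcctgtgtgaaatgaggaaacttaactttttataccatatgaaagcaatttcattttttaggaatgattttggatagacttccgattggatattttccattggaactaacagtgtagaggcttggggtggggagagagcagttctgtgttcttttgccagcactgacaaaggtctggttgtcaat
Mef2c window at chr13:83523406-83523705, plus strand: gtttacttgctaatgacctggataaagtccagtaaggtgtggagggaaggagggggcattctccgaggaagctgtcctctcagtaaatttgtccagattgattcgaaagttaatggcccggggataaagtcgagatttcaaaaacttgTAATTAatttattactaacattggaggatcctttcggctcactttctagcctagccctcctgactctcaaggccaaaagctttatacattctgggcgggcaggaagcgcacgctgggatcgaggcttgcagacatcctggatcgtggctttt
The first Mef2c window holds 2 overlapping copies, so that the run of capitals is longer than 1 motif. A match of letters is a description and not a bound site.

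Dlx1 (ENSMUSG00000041911, mm9 chromosome 2 from 71366170 to 71372038) measured 191, 160.5, 200.2, 210.2 and 198 CPM across shNT replicates 1 to 5, against 161, 163, 162 and 103 CPM across shRNA replicates 1 to 4. The first 3 shRNA values were close to the lowest shNT value, and shRNA replicate 4 lay well below every other sample. Averages were 192 ± 18.9 CPM in shNT (SD, n = 5) against 147 ± 29.5 CPM in shRNA samples (SD, n = 4), and the fitted log2 fold change was -0.38 (standard error 0.17, 95% interval -0.75 to -0.02, FDR = 0.134, edgeR quasi-likelihood test). Without shRNA replicate 4 the log2 fold change was -0.26. Of its exon bases, 6.21% are shared with the antisense gene Dlx1as on the opposite strand, and since counting ignored strand, reads there cannot be assigned to either. Dlx1as itself had 16.7 ± 1.44 CPM (SD, n = 5) in shNT and 13.4 ± 2.25 CPM (SD, n = 4) in shRNA samples (log2 fold change -0.31, FDR = 0.175, edgeR quasi-likelihood test).

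Dlx5 (ENSMUSG00000029755, mm9 chromosome 6 from 6827805 to 6832085) measured 52.1, 49.1, 64.3, 69.3 and 81.2 CPM across shNT replicates 1 to 5, against 48.3, 49.7, 46.1 and 21.4 CPM across shRNA replicates 1 to 4. The 2 lower shNT values lay close to the 3 higher shRNA values, and shRNA replicate 2 was just above shNT replicate 2, so the groups overlapped. Averages of Dlx5 were 63.2 ± 13.1 CPM in shNT (SD, n = 5) against 41.3 ± 13.4 CPM in shRNA samples (SD, n = 4), and the fitted log2 fold change was -0.61 (standard error 0.25, 95% interval -1.15 to -0.07, FDR = 0.112, edgeR quasi-likelihood test). Without shRNA replicate 4 it was -0.41.

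Dlx6 (ENSMUSG00000029754, mm9 chromosome 6 from 6813334 to 6818568), the neighbour of Dlx5 on the same chromosome, measured 11.1, 10.8, 10.8, 14.4 and 13.1 CPM across shNT replicates 1 to 5, against 9.93, 8.73, 9.86 and 4.60 CPM across shRNA replicates 1 to 4. All 4 shRNA values were below all 5 shNT values, as they were for 6.68% of all genes tested (8.97% had all shRNA values higher). Averages were 12.04 ± 1.62 CPM in shNT (SD, n = 5) against 8.28 ± 2.51 CPM in shRNA samples (SD, n = 4), and the fitted log2 fold change was -0.54 (standard error 0.23, 95% interval -1.04 to -0.04, FDR = 0.126, edgeR quasi-likelihood test), and -0.36 without shRNA replicate 4. The lowest count behind these values was 102 reads. Dlx6 lies within the span of Dlx6os1, a noncoding gene on the other strand, but shares no exon base with it. Dlx6os1 had 87.0 ± 14.4 CPM (SD, n = 5) in shNT and 69.9 ± 18.8 CPM (SD, n = 4) in shRNA samples (log2 fold change -0.32, FDR = 0.276, edgeR quasi-likelihood test).

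Maf (ENSMUSG00000055435, mm9 chromosome 8 from 118206842 to 118231694), which acts in young MGE-derived interneurons, measured 78.2, 68.4, 73.1, 72.7 and 93.6 CPM across shNT replicates 1 to 5, against 60.0, 60.9, 52.5 and 31.3 CPM across shRNA replicates 1 to 4. Again all 4 shRNA values were below all 5 shNT values. Averages of Maf were 77.2 ± 9.83 CPM in shNT (SD, n = 5) against 51.2 ± 13.8 CPM in shRNA samples (SD, n = 4), and the fitted log2 fold change was -0.59 (standard error 0.19, 95% interval -1.02 to -0.17, FDR = 0.0754, edgeR quasi-likelihood test), the lowest FDR among the 8 factors. Maf passed the same thresholds with edgeR's likelihood ratio test (FDR = 0.0364), with its exact test (FDR = 0.0374) and with DESeq2 (FDR = 0.0275), tests that called 3.60%, 3.54% and 5.53% of all genes lower. With limma voom and sample quality weights Maf had an FDR of 0.0065 but fell short of 1.5-fold (log2 fold change -0.48), and 4.10% of all genes were called lower. Without shRNA replicate 4 the log2 fold change of Maf was -0.43 (FDR = 0.132, edgeR quasi-likelihood test). Over all 29 alternatives its FDR ran from 0.0065 to 0.658 (edgeR, DESeq2 and limma). Of its exon bases, 5.34% are shared with Gm15655 on the opposite strand, and reads from that stretch could not be assigned to either gene.

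Lhx6 (ENSMUSG00000026890, mm9 chromosome 2 from 35937470 to 35960928), the factor that MGE interneurons keep from migration to adulthood, measured 249.8, 157, 278, 263 and 211 CPM across shNT replicates 1 to 5, against 194, 245, 209.5 and 94.0 CPM across shRNA replicates 1 to 4. The 2 lowest values were those of shRNA replicate 4 and shNT replicate 2, and the groups overlapped over much of their range. Averages were 232 ± 48.6 CPM in shNT (SD, n = 5) against 185 ± 64.6 CPM in shRNA samples (SD, n = 4), and the fitted log2 fold change was -0.32 (standard error 0.26, 95% interval -0.90 to 0.26, FDR = 0.396, edgeR quasi-likelihood test). Without shRNA replicate 4 it was -0.11.

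Satb1 (ENSMUSG00000023927, mm9 chromosome 17 from 51875512 to 51972615), which acts downstream of Lhx6, measured 206, 122, 216, 204 and 183 CPM across shNT replicates 1 to 5, against 150.4, 193, 191 and 98.1 CPM across shRNA replicates 1 to 4. As for Lhx6, shNT replicate 2 and shRNA replicates 1 and 4 were the low samples. Averages were 186 ± 37.8 CPM in shNT (SD, n = 5) against 158 ± 44.5 CPM in shRNA samples (SD, n = 4), and the fitted log2 fold change was -0.24 (standard error 0.23, 95% interval -0.74 to 0.27, FDR = 0.471, edgeR quasi-likelihood test), and -0.07 without shRNA replicate 4.

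Mef2c (ENSMUSG00000005583, mm9 chromosome 13 from 83643033 to 83806684), a factor of neuronal maturation, measured 685, 408, 771, 652 and 659.9 CPM across shNT replicates 1 to 5, against 478, 701, 624 and 299.8 CPM across shRNA replicates 1 to 4. The same 3 samples as for Satb1 were low. Averages were 635 ± 135 CPM in shNT (SD, n = 5) against 526 ± 177 CPM in shRNA samples (SD, n = 4), and the fitted log2 fold change was -0.27 (standard error 0.26, 95% interval -0.85 to 0.30, FDR = 0.468, edgeR quasi-likelihood test), and -0.09 without shRNA replicate 4.

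Sox6 (ENSMUSG00000051910, mm9 chromosome 7 from 122614858 to 123182258), which acts downstream of Lhx6 in the positioning of MGE interneurons, measured 28.4, 21.6, 25.6, 23.9 and 29.9 CPM across shNT replicates 1 to 5, against 22.5, 22.7, 19.5 and 30.6 CPM across shRNA replicates 1 to 4. Here shRNA replicate 4 was the highest of all 9 samples, whereas it was the lowest for each of the other 7 factors. Averages were 25.9 ± 3.35 CPM in shNT (SD, n = 5) against 23.8 ± 4.73 CPM in shRNA samples (SD, n = 4), and the fitted log2 fold change was -0.12 (standard error 0.16, 95% interval -0.48 to 0.24, FDR = 0.610, edgeR quasi-likelihood test). Without shRNA replicate 4 the log2 fold change of Sox6 was -0.28.

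For Lhx6, Satb1, Mef2c and Dlx1 the 3 lowest of all 9 samples were the 3 with the most reads outside exons, from both groups. Lhx6 had 94.0 to 194 CPM in those 3 samples and 209.5 to 278 CPM in the other 6, and Mef2c had 299.8 to 478 CPM against 624 to 771 CPM. Dlx1 had 102.7 to 161.1 CPM against 161.7 to 210.2 CPM, so its place here rests on a near tie. Among the other 6 samples, Dlx1 was at 162.5 and 161.7 CPM in shRNA replicates 2 and 3, below 190.8 to 210.2 CPM in shNT. Gad1, Gad2 and Slc32a1, which serve the synthesis and vesicular packaging of GABA, were lowest in the same 3 samples, and Gad1 was at 1228 to 1930.3 CPM in those 3 samples and at 2909 to 3554 CPM in the other 6. Dlx5, Dlx6, Maf and Sox6 had other samples among their 3 lowest. With the outside-exon read share as covariate, the log2 fold changes were 0.12 for Lhx6, 0.16 for Satb1 and 0.16 for Mef2c, and they stayed below 0 for Maf (-0.38), Dlx6 (-0.29), Dlx5 (-0.28), Sox6 (-0.25) and Dlx1 (-0.16). Every shRNA sample had a higher share than every shNT sample except shNT replicate 2, so share and group can hardly be told apart.

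**Figure D3:**
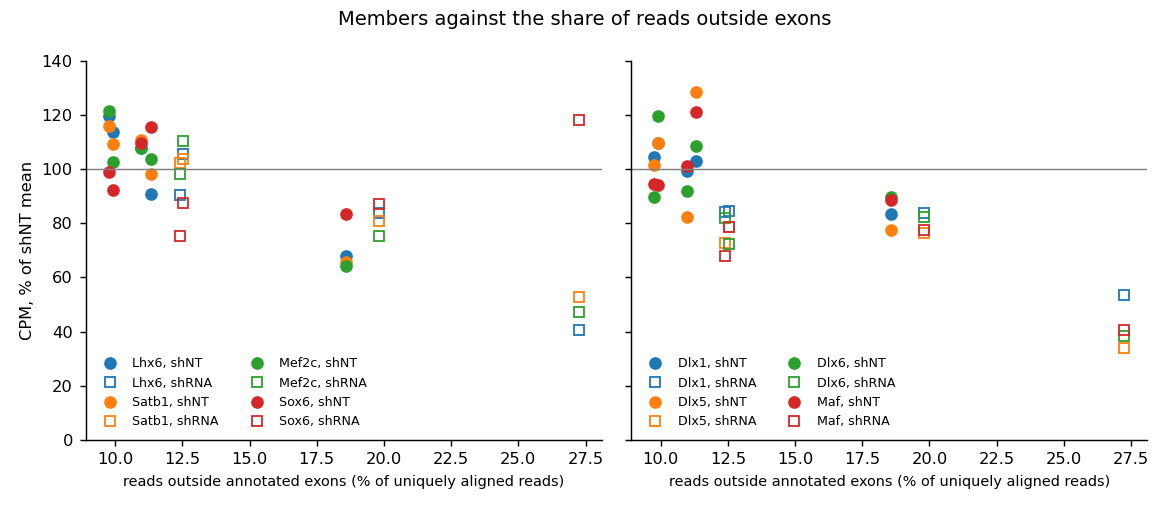
Level of each factor as a percentage of its shNT mean (vertical axis) against the percentage of uniquely aligned reads outside annotated exons (horizontal axis) in each sample, with filled circles for shNT and open squares for shRNA. Lhx6, Satb1 and Mef2c (left) fall in shNT as well as in shRNA samples above 18%, and Sox6 (left) is highest at 27.2%. Maf, Dlx1, Dlx5 and Dlx6 (right) and Sox6 (left) are lower in shRNA samples near 12.5% than in shNT samples below 18%.

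Set against the mean log2 level of Gad1, Gad2 and Slc32a1 in the same sample, Lhx6 varied little. The SD of its log2 level over the 9 samples was 0.49 alone and 0.13 relative to these 3 genes, for Mef2c 0.45 and 0.12, and for Satb1 0.39 and 0.18. For Sox6 it was 0.22 alone and 0.62 relative to them, but 0.20 and 0.30 without shRNA replicate 4. For Dlx1 it was 0.31 alone and 0.29 relative to them, for Dlx5 0.54 and 0.28, for Dlx6 0.47 and 0.33, and for Maf 0.45 and 0.34. Without shRNA replicate 4 it was 0.17 and 0.25 for Dlx1, and 0.30 and 0.30 for Dlx5. Likewise it was 0.23 and 0.35 for Dlx6, and 0.26 and 0.35 for Maf. In the same 8 samples it was 0.27 and 0.14 for Lhx6, 0.31 and 0.08 for Mef2c, and 0.28 and 0.10 for Satb1. When counts were scaled to these 3 genes, which moved the median of all genes to 0.61, the log2 fold changes were above 0 for Lhx6 (0.05), Dlx1 (0.03), Satb1 (0.17), Mef2c (0.11) and Sox6 (0.48), and below 0 for Dlx5 (-0.24), Maf (-0.22) and Dlx6 (-0.17). Since this scaling raised the median gene too, a value above 0 under it does not show a rise, and all 8 factors stayed below the median gene. In the 6 samples named YTa31 alone, log2 fold changes were -0.38 for Maf, -0.26 for Sox6, -0.23 for Dlx5, -0.23 for Dlx6 and -0.22 for Dlx1, and from -0.05 to -0.11 for the other 3. What the sets of names YTa31 and YTa32 stand for is not stated, and YTa32 holds 1 shRNA sample.

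**Figure D4:**
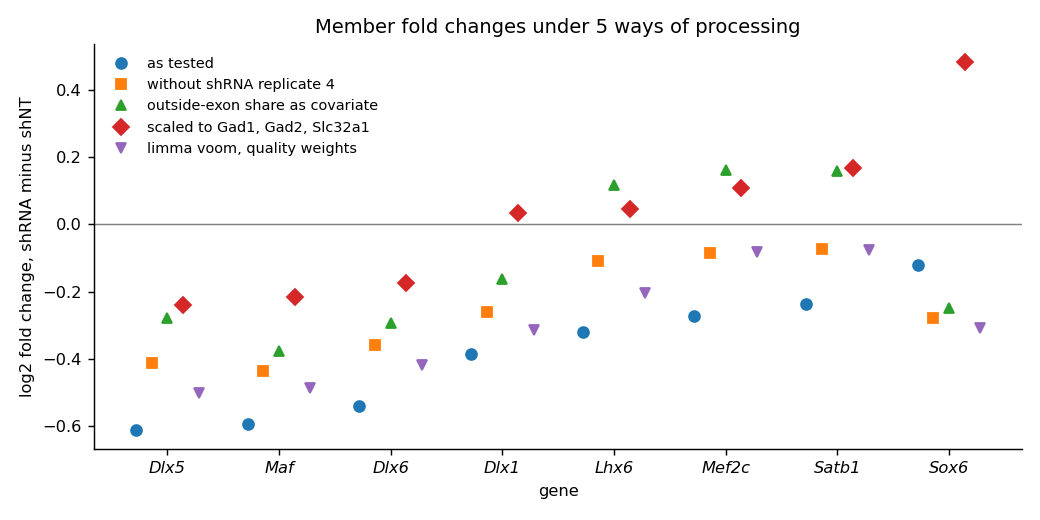
Log2 fold change (shRNA minus shNT, vertical axis) of each factor as tested, without shRNA replicate 4, with the outside-exon read share as covariate, scaled to Gad1, Gad2 and Slc32a1, and with limma voom and sample quality weights. Dlx5, Maf and Dlx6 stay below 0 in all 5, while Lhx6, Satb1 and Mef2c rise above 0 with the covariate and with scaling to the GABA genes.

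Deviations of the log2 levels from the group means showed which factors moved together from sample to sample, as a description over 9 samples in which all genes of a library share its depth and RNA quality. Over the 28 pairs of factors the Pearson r had a median of 0.78 and a range from -0.65 to 0.99, and without shRNA replicate 4 a median of 0.48 and a range from 0.04 to 0.97. Satb1 and Mef2c were the closest pair (r = 0.99, and 0.97 without shRNA replicate 4), and Lhx6 was close to both (r = 0.96 and 0.95). Dlx6 and Mef2c had r = 0.67, which dropped to 0.04 without shRNA replicate 4, and Lhx6 and Maf 0.77, which dropped to 0.13. All 7 pairs with Sox6 were below 0 (-0.65 to -0.29) with shRNA replicate 4 and above 0 (0.05 to 0.91) without it.

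Among 9493 genes averaging at least 10 CPM, those whose deviations were most like each factor's were named as a description over the same 9 samples. They were Cdr2l and Pak1 for Lhx6 (r = 0.995 and 0.993), Syn2 and Dok7 for Satb1 (r = 0.999 and 0.997), and Napb and Gabrb2 for Mef2c (r = 0.998 and 0.998). For Dlx1 they were Zfp385a and Oxa1l (r = 0.994 and 0.993), for Dlx5 Rnf34 and Tfam (r = 0.996 and 0.996), and for Dlx6 Snapc2 and Csnk2a2 (r = 0.984 and 0.982). Maf was closest to Rpl24 and Gnl1 (r = 0.988 and 0.976) and Sox6 to Gtf2i and Alg6 (r = 0.953 and 0.919). Syn2 encodes a synaptic vesicle protein, Napb a protein of vesicle fusion, and Gabrb2 encodes a GABA-A receptor subunit. The functions of the other genes named are not described here, and no such likeness was computed without shRNA replicate 4.

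Other genes of the same families did not pass either. Of 13 family members, 8 were tested and 5 (Dlx3, Dlx4, Lhx8, Nrl and Mef2b) were too low, with Lhx8 and Mef2b at 0 counts in every sample, and 0 of the 8 tested passed (edgeR quasi-likelihood test, with 1 of 8 at an unadjusted p under 0.05, and 0 under every alternative). Dlx2, the partner of Dlx1 on chromosome 2, had 59.9 ± 10.2 CPM (SD, n = 5) in shNT and 44.1 ± 14.0 CPM (SD, n = 4) in shRNA samples (log2 fold change -0.44, FDR = 0.196, edgeR quasi-likelihood test). On the other side stood Sox5, a relative of Sox6 (log2 fold change 0.44, FDR = 0.136, edgeR quasi-likelihood test). The median of the 8 tested relatives was 0.25, against -0.35 for the factors themselves.

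Of 16 further factors of interneuron lineages, 14 were tested (Nkx2-1 and Gsx2 were too low) and 1, St18, passed, in the higher direction (1.74% of all genes passed higher). At an unadjusted p under 0.05 there were 9 of the 14, beside 34.1% of all genes, and 5 had every shRNA value above every shNT value, beside 8.97% of all genes. St18, known from MGE-derived projection neurons of the pallidum, had 8.76 ± 2.45 CPM (SD, n = 5) in shNT and 22.9 ± 3.37 CPM (SD, n = 4) in shRNA samples, with a log2 fold change at 1.39 (FDR = 0.0403, edgeR quasi-likelihood test). The call was lost when any of shNT replicates 3, 4 and 5 and shRNA replicates 1 and 3 was left out, and each of those fits called 0 of all genes. Sp8 had the highest log2 fold change (1.58, FDR = 0.117) but lay at 0.226 ± 0.153 CPM (SD, n = 5) in shNT samples, and Sp9 was among the lowest (-0.58, FDR = 0.0888, edgeR quasi-likelihood test). St18 is also expressed in oligodendrocytes, whose summed markers were 768 to 2398 CPM in shNT and 1457 to 3039 CPM in shRNA samples, and oligodendrocyte precursor markers were 73.7 to 110.2 CPM and 119 to 157 CPM, their part in this result not being tested. The median of the 14 was 0.63, against -0.35 for the factors themselves.

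Genes that interneurons use, such as GABA enzymes, peptides and potassium channels, pointed the same way as the 8 factors without passing. Of 15 such genes tested, 13 had a log2 fold change below 0 (median -0.31) and 0 passed (edgeR quasi-likelihood test, with 2 of 15 at an unadjusted p under 0.05, beside 34.1% of all genes, and 1 passing with edgeR's likelihood ratio test, its exact test, DESeq2 and limma voom, which called 3.60%, 3.54%, 5.53% and 4.10% of all genes lower). Of all genes 42.1% had a log2 fold change below 0. Pvalb, which encodes parvalbumin, was lowest (log2 fold change -0.92, FDR = 0.0678), followed by Tac1 (-0.54, FDR = 0.133), and Elfn1 (0.05, FDR = 0.924) and Ackr3 (0.01, FDR = 0.958) were at the top (edgeR quasi-likelihood test). Gad1 stood at -0.37 (FDR = 0.404), Gad2 at -0.25 (FDR = 0.527) and Slc32a1 at -0.45 on the log2 scale (FDR = 0.310, edgeR quasi-likelihood test).

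**Figure D5:**
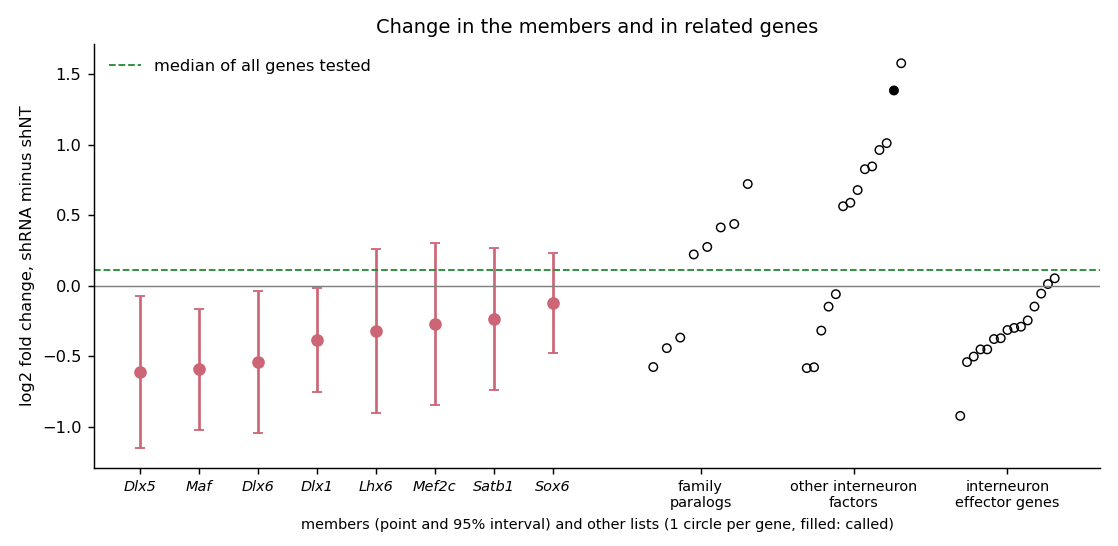
Log2 fold change (shRNA minus shNT, vertical axis) of the 8 factors with 95% intervals (left) and of each tested gene of 3 other lists (circles, filled where the gene passed), with 0 as a grey line and the median of all genes tested (0.11) as a dashed line. All 8 factors and 13 of 15 effector genes lie below 0, and St18 is the filled circle.

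Markers of some other cell types were higher in the shRNA samples and those of others overlapped between groups. Summed CA3/CA2 pyramidal markers were 782 to 1703 CPM in shNT and 1756 to 2186 CPM in shRNA samples, and 10 of 10 astrocyte, 8 of 8 oligodendrocyte and 7 of 8 oligodendrocyte precursor markers had a log2 fold change above 0. All 10 PV IN markers had a log2 fold change below 0 (median -0.38), beside 42.1% of all genes. Of these markers 0 passed (edgeR quasi-likelihood test, with 3 of 10 at an unadjusted p under 0.05, beside 34.1% of all genes). Except for Cox6a2, the PV IN markers are also among the effector genes above, so the lists are not separate results. Of the marker genes, 7 passed, in the higher direction like 262 of the 264 genes that passed in all (1.74% of all genes passed higher). They were 4 of 8 oligodendrocyte precursor markers, Pdgfra (log2 fold change 1.21), Olig2 (0.96), Gpr17 (1.32) and Neu4 (1.499). The others were 1 of 10 pyramidal markers, Grik4 (1.17), and 2 of 10 markers of other interneurons, Cnr1 (1.19) and Reln (1.16). Their FDR values ran from 0.0403 to 0.0456 (edgeR quasi-likelihood test). Summed markers of other interneurons were 579 to 948 CPM in shNT and 393 to 759.6 CPM in shRNA samples, of DG granule cells 106 to 159 and 124 to 149 CPM, of striatal projection neurons 45.8 to 73.5 and 70.8 to 95.3 CPM, of microglia 80.1 to 152 and 122 to 139 CPM, and of endothelial cells 142 to 434 and 91.1 to 1201 CPM (91.1 to 171 CPM without shRNA replicate 4). The summed levels did not overlap between groups for pyramidal and oligodendrocyte precursor markers, and overlapped for the other lists. No list had a marker at 0 in every sample, and the part of these markers in the lower levels of the 8 factors was not tested.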

How the data were processed

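RNA sequencing counts of ribosome-associated RNA from 5 shNT and 4 shRNA samples were used. The authors aligned reads to the mouse mm9 transcriptome with STAR and used HTSeq 0.6.0 to count reads on genes, ignoring strand; the deposited values are these raw counts. Reads outside exons, ambiguous reads and reads with several alignments were listed separately and kept out of library sizes; ambiguous reads were 1.36% to 1.78% of uniquely aligned reads, and the shares outside exons are given in the results. Names and positions came from the GENCODE annotation of mm9, which named 37205 of 37620 identifiers; the name of the annotation behind the counts is not given in the sources used here.

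The filter kept 15069 genes that reached 1 CPM in any 1 sample (22551 removed), and counts, TMM-normalized, were compared in edgeR 4.0.16 (R 4.3.3) by quasi-likelihood with condition as the only term, since the study names edgeR but not its test. Genes were called at an FDR under 0.05 (Benjamini-Hochberg over all genes tested) and at least 1.5-fold. Log2 levels used a prior count of 2. Alternatives used DESeq2 1.42.0 and limma 3.58.1. Replicates are pools of 6 mice, and same-numbered samples were not paired.

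The 8 genes and all lists were chosen with earlier results of these data known. The genes named are the 8 factors, Ablim3, Pvalb, Gad1, Gad2 and Slc32a1, the called genes and the 2 highest and 2 lowest of each list of factors, relatives and effectors, the called genes of the marker lists, and the 2 genes most like each factor; the antisense genes were added after their values were seen. Some genes that this rule takes are not reported here. The share of 18% of reads outside exons was set after the libraries were seen.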

Additional observations from a re-analysis of the deposited data

Results flagged for a closer look

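In 7 of 42 groups of values, 1 sample lay farther from the others than Dixon's test allows at the 95% level, where chance gives about 2.1 (1 in 20). Dlx1 was at 103 CPM in shRNA replicate 4, against 161 to 163 CPM in the other 3 shRNA samples. Dlx5 was at 21.4 CPM in shRNA replicate 4, against 46.1 to 49.7 CPM. In the same library, summed astrocyte markers were at 5568 CPM (1418 to 1678 CPM in the others), summed endothelial markers at 1201 CPM (91.1 to 171 CPM), and alignments at several places made up 8.24% of all alignments (10.6% to 10.8%). In shNT replicate 2, summed oligodendrocyte markers were at 2398 CPM (768 to 1208 CPM in the other shNT samples) and 18.6% of uniquely aligned reads lay outside exons (9.76% to 11.3%). The part of these values in the results on the 8 factors was not tested.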

How the results depend on the processing

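Dlx5, Dlx6 and Maf had a log2 fold change below 0 under all 29 alternatives, Dlx1 and Sox6 under 27, and Lhx6, Satb1 and Mef2c under 26. Scaled to Gad1, Gad2 and Slc32a1, which lifted the median of all genes from 0.11 to 0.61 and left all 8 factors below it, log2 fold changes were above 0 for Lhx6 (0.046), Sox6 (0.48), Satb1 (0.17), Dlx1 (0.033), Mef2c (0.11), Dlx1as (0.14), Dlx6os1 (0.091) and Gad2 (0.11), and the likelihood ratio test with this scaling gave the same values to 2 decimals. With the outside-exon read share as covariate, which went largely with the group, they were above 0 for Lhx6 (0.12), Satb1 (0.16), Mef2c (0.16), Gad1 (0.15), Gad2 (0.20) and Slc32a1 (0.067). The cause was not tested.

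Of all genes, 264 were called, and this number moved to 2230 with edgeR's likelihood ratio test, 2193 with its exact test, 2365 with DESeq2, 2919 with limma voom and sample quality weights, 515 with no filter on low counts, 831 and 949 with the likelihood ratio test and DESeq2 without shRNA replicate 4, 991 with the likelihood ratio test scaled to the GABA genes, and 0 with library size only, upper quartile, scaling to the GABA genes, filterByExpr, the covariate, the YTa31 samples alone or without the 3 samples with the most reads outside exons (edgeR quasi-likelihood test, with 1493 to 5360 genes at an unadjusted p under 0.05 in these fits). Without 1 replicate at a time it lay between 0 and 1417: 0 without shNT replicates 3, 4 and 5 and shRNA replicates 1 and 3 in turn, 142 without shRNA replicate 4, 482 without shNT replicate 2 and 1417 without shNT replicate 1, and the fits at 0 had 3473 to 4625 genes at an unadjusted p under 0.05. Of the 8 factors, 0 were called, except 1 (Maf) with the likelihood ratio test, the exact test and DESeq2. With limma voom and sample quality weights, Maf, Dlx5, Dlx1, Dlx6 and Sox6 had an FDR under 0.05 but were under 1.5-fold. In that fit 7439 of 15069 genes had an unadjusted p under 0.05 (limma voom). The share of all genes at an FDR under 0.05 whatever the fold is not given here. Of the other interneuron factors, 1 was called, and 4 with the likelihood ratio test, the exact test, DESeq2 and limma voom. Those 4 were all higher, except with DESeq2, where 3 were higher and 1 lower. The number was 2 with no filter, with at least 1 CPM in 4 samples, with the set of names as a block, with the likelihood ratio test scaled to the GABA genes, and with that test or DESeq2 without shRNA replicate 4. It was 0 with every setting that called 0 of all genes, and 0 to 3 without 1 replicate. Of the effector genes 0 were called, but 1 with the likelihood ratio test, the exact test, DESeq2, limma voom and DESeq2 without shRNA replicate 4, and 0 to 1 without 1 replicate (1 without shNT replicate 1). Of the family relatives 0 were called under every alternative.

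Replicate numbers did not pair samples: deviations of same-numbered samples correlated at -0.27, -0.64, 0.49 and -0.18. With the replicate block (numbers 1 to 4, 8 samples) 34 genes were called, 0 of the other interneuron factors and 0 of the 8 factors, with log2 fold changes of the 8 from -0.65 to -0.16. The likelihood ratio and DESeq2 fits without shRNA replicate 4, the fit without 3 samples and the likelihood ratio test with GABA scaling were chosen after seeing the data. The smallest count behind any factor was 102 reads.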
